A study of Homo sapiens with 47 samples.

Results

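The regions described here are stretches of chromosomes 1 to 22 called for the histone mark H3K9me3 in vemurafenib-resistant and in engineered 451Lu melanoma cells. They were called in neither control group, which does not show that the mark was absent there. They were chosen by peak calls. The deposited H3K9me3 islands of 8 libraries were merged wherever they overlapped, which gave 83727 regions, and a region was kept when both resistant and both engineered libraries had an island in it and none of the 4 control libraries did. The rule kept 284 regions, 0.339% of the 83727 (635 with island lists cut to equal length, 139 of them shared), spanning 2.684 Mb of the 662.75 Mb that islands of any library covered. They are called gained regions below, and since the H3K9me3 calls chose them, their H3K9me3 values are a description with no test.

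The series compared cells of the human melanoma lines 451Lu and WM983B with ATAC-seq, which marks open chromatin through cuts by the transposase Tn5, and with ChIP-seq of H3K9me3 and of H3K27ac. All H3K9me3 libraries came from 451Lu. The parental group was the line labelled parental, and the resistant group was the line labelled Vemurafenib-resistant. The shp150_AP1 group over-expressed both c-JUN and c-FOS, which are AP-1 components, and carried an shRNA against p150, and its control, vector_NT, carried what the labels call vector and NT control. Each of these 4 groups had 2 libraries of H3K9me3 and 2 of ATAC-seq, and ATAC-seq was also made of cells with each change alone (shp150 against NT, AP1 against vector, 2 libraries each). H3K27ac was measured only in parental and resistant cells of both lines. Nothing in the labels says that libraries of a group came from separate cultures or clones, so p-values here measure a spread that can be purely technical.

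H3K9me3 is laid down by histone methyltransferases such as SETDB1 and SUV39H1 and is bound by HP1 proteins, which pack the chromatin into a repressed state. It covers pericentromeric repeats, transposable elements and many gene-poor domains, and such domains often differ between cell states. The protein p150, encoded by CHAF1A, is the large subunit of CAF-1, which places new histones on replicated DNA and also binds HP1. c-JUN and c-FOS pair to form AP-1, a transcription factor that opens enhancers and is often raised in melanoma cells that escape BRAF inhibitors such as vemurafenib. H3K27ac, in contrast, marks active promoters and enhancers.

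The gained regions were a small class beside the losses. The reverse rule, an island in all 4 control and no resistant or shp150_AP1 library, held for 3938 regions (4.70% of all), and 16943 regions (20.2%) had an island in all 8 libraries. Within single arms, 1991 regions had an island in both resistant and neither parental library, against 12135 in the reverse direction. In the engineered arm 1215 regions had one in both shp150_AP1 and neither vector_NT library, against 10192 in reverse. ChIP read totals inside islands were unequal. They were 30.9 and 21.7 M in vector_NT, 15.7 and 18.2 M in parental, 14.8 and 13.2 M in resistant and 11.5 and 14.8 M in shp150_AP1 cells. Such totals depend on depth and on how much the islands cover, and depth itself was not measured here. The control libraries also had longer lists on the whole, with 61470 to 76134 islands against 39905 to 63016 in the other groups. The part of depth in these counts was not tested.

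How strict the rule is decides how many regions it keeps. A looser rule on 7 libraries kept 482 regions without resistant replicate 1, 442 without resistant replicate 2, 462 without shp150_AP1 replicate 1, 570 without shp150_AP1 replicate 2 and 427 without vector_NT replicate 1, as fewer libraries had to meet it. When a library had to cover 50% of a region to count as calling it, 328 regions met the rule and 53 of the 284 were among them. Just outside the rule lay 304 regions with an island in all 4 resistant and shp150_AP1 libraries and in 1 control library. For 142 of them it was vector_NT replicate 1, the library with most ChIP reads in islands. Another 650 regions had islands in 3 of the 4 and in no control, and shp150_AP1 replicate 2 was the missing library for 248. The median ChIP over input ratio, which is the deposited ChIP read count of an island divided by its input read count, was 1.18 in the gained regions, 1.15 in the 304 and 1.15 in the 650.

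The gained regions were wide. They ran from 1200 to 36800 bp with a median of 8200 bp, against 5000 bp for all regions and 11600 bp for regions with islands in all 8 libraries. The rule joins islands of 4 libraries, while all regions include those of 1 library, so greater width follows in part from the rule. The 650 regions with islands in 3 of the 4 libraries and in no control had a median of 6200 bp. Most gained regions held a single island of each library, in 247 and 230 regions for resistant and 235 and 254 for shp150_AP1 replicates 1 and 2. The islands did not fill them equally. The median share of a region covered was 73.8% and 59.7% in the resistant libraries and 43.3% and 60.9% in the shp150_AP1 libraries. In 235 regions at least 1 base lay inside islands of all 4 libraries, and these common bases made up 17.4% of all bases in gained regions. The other 49 had islands of the 4 libraries that joined into 1 region without any base in common.

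Enrichment inside them was low and varied widely between regions. The ChIP over input ratio had a median of 1.26 in resistant replicate 1 (range 0.538 to 7.05), 1.17 in resistant replicate 2 (0.458 to 3.86), 1.14 in shp150_AP1 replicate 1 (0.415 to 5.67) and 1.14 in shp150_AP1 replicate 2 (0.457 to 3.18). Over all regions called in the same libraries the medians were 1.32, 1.29, 1.28 and 1.37, so the gained regions were the lower in each library. No input sample labelled for shp150_AP1 replicate 1 was among the samples used here, so which input stands behind that library's counts is not known, and its ratios and folds carry this limit throughout. The counts behind a ratio were moderate, with medians of 217, 176, 115.5 and 170 ChIP reads and 187, 160.5, 105.5 and 156.5 input reads. This ratio depends on how deeply each library was sequenced. The deposited fold removes that: it equals the ratio times 1 constant per library, 1.31, 1.47, 1.74 and 1.5 in the same order. On this scaled fold the medians were 1.66, 1.72, 1.97 and 1.70, and 239 of the 284 regions were above 1 in all 4 libraries.

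**Figure D1:**
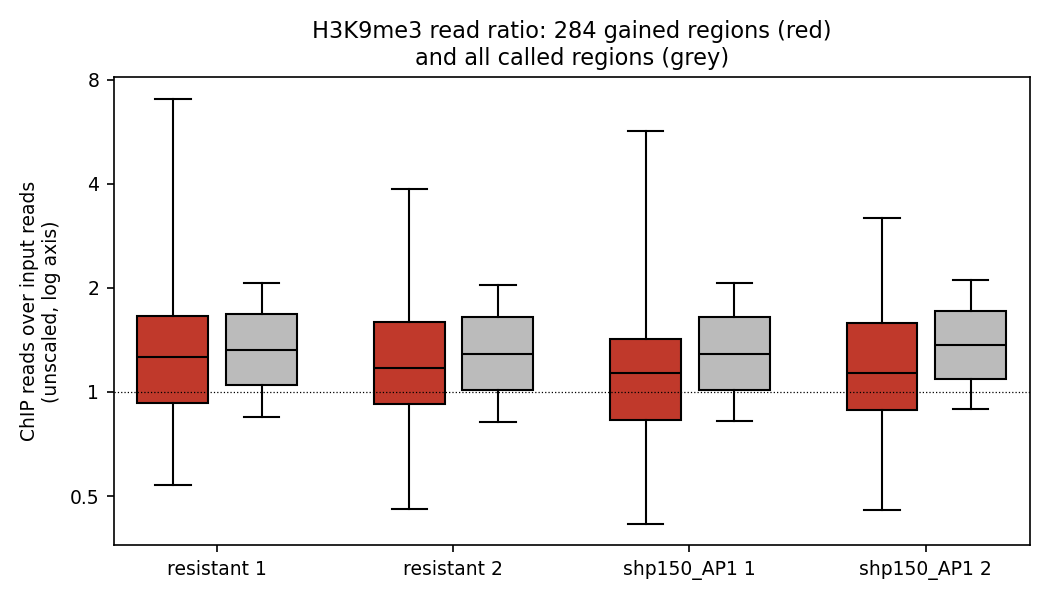
ChIP over input ratio (deposited ChIP read count over deposited input read count, log axis, unscaled) in each resistant and shp150_AP1 library. Red boxes show the 284 gained regions (box, quartiles and median; whiskers, lowest and highest) and grey boxes all regions called in that library (whiskers, 10th and 90th percentile), and the red medians of 1.14 to 1.26 lie under the grey ones of 1.28 to 1.37.

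The remaining 45 regions were concentrated on few chromosomes and lay where the input itself was high. In 6 of them the scaled fold was above 1 in no library, in 16 in 1 library, in 13 in 2 and in 10 in 3. Of the 45, 18 were on chromosome 20, 11 on chromosome 3 and 9 on chromosome 22, and 7 on all other chromosomes. Relative input was taken from the input reads per kb of a library's own islands in a region. These were divided by that library's median over the regions called in all 8 libraries. Taken as the median of the 4 libraries, relative input had a median of 1.73 in the 45 (range 1.17 to 2.11) and of 0.944 in the 239 (range 0.404 to 1.96). Input is the denominator of the fold, so both quantities are linked by construction. On the raw ratio, 60 regions were below 1 in all 4 libraries and 137 above 1 in all 4, and the deposited false discovery rate was under 0.01 in all 4 libraries for 199 regions and in none for 28.

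**Figure D2:**
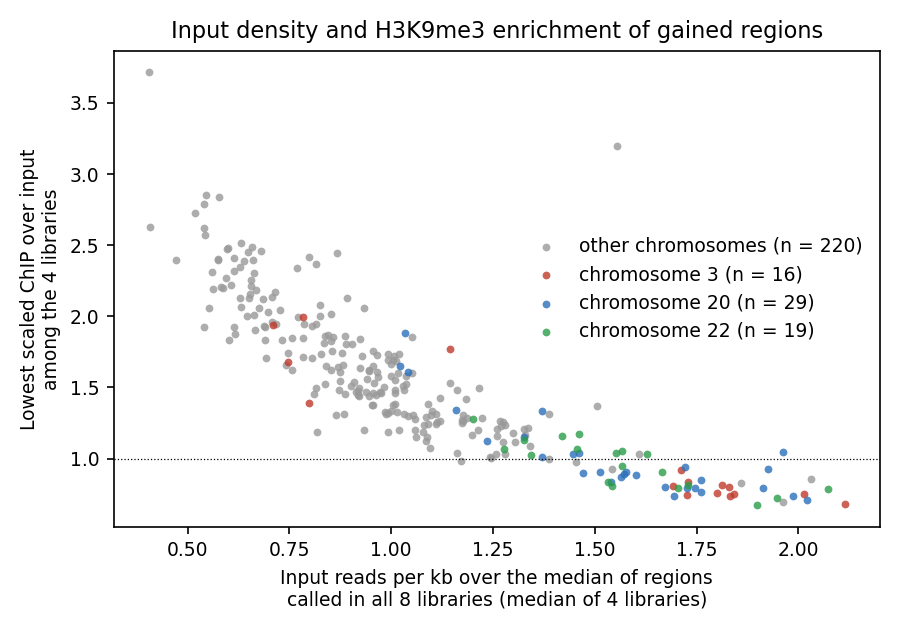
Relative input (x axis) against the lowest scaled fold among the 4 resistant and shp150_AP1 libraries (y axis) for the 284 gained regions. Points are coloured for chromosomes 3 (n = 16), 20 (n = 29) and 22 (n = 19) and grey for all others (n = 220). Input reads per kb of a library's own islands were divided by its median in regions called in all 8 libraries. The median of the 4 libraries is shown. Regions with a lowest fold of 1 or less have a relative input of 1.17 or more, and 38 of these 45 are on the 3 coloured chromosomes.

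High input at these places was a feature of all 8 libraries, controls included. In regions called in all 8 libraries and within 500000 bp of a gained region, relative input was 1.5 to 1.65 on chromosome 3, 1.46 to 1.54 on chromosome 20 and 1.54 to 1.62 on chromosome 22, over the 8 libraries. On chromosomes 20 and 22 regions farther away were alike, at 1.52 to 1.58 and 1.54 to 1.59, while on chromosome 3 they were at 0.866 to 0.908. Input near gained regions also differed between groups on other chromosomes. Each library was measured over its own islands in those regions, so the bases compared differ between libraries. Of the 17 chromosomes with at least 10 such regions, the resistant and shp150_AP1 libraries were all above the controls on 6, all below on 3 and overlapped on 8. On chromosome 7 the measure was 0.757 and 0.759 in parental and 0.770 and 0.744 in vector_NT cells, against 0.904 and 0.895 in resistant and 0.825 and 0.858 in shp150_AP1 cells, over 168 regions. Over the 1203 regions farther away on chromosome 7 the groups overlapped, at 0.995 to 1.01 in controls and 0.972 to 1.0 in the others. On chromosomes 5, 12, 14 and 16 the resistant and shp150_AP1 libraries were above the controls both near gained regions and farther away. The part of input level in the calls was not tested.

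Gained regions were spread unevenly over the chromosomes. Chromosome 2 had 46 of them (16.2%, against 11.5% of all regions) and chromosome 7 had 42 (14.8%, against 7.65%). Chromosome 20 had 29 (10.2%, against 2.66%) and chromosome 22 had 19 (6.69%, against 1.81%). The highest rates were thus on chromosomes 20 and 22, with 13.0 and 12.5 gained regions per 1000 regions, against 6.56 on chromosome 7. Chromosome 6, in contrast, had 2 (0.704%, against 6.68%), chromosomes 9 and 15 had 2 and 1, and chromosomes 18 and 19 had none. Regions lost in both arms showed the reverse on these chromosomes except 19, with 3 on chromosome 20, 2 on chromosome 22 and 13.4% of all of them on chromosome 6. Chromosome 19 had few of these too (0.711%, against 1.47% of all regions).

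**Figure D3:**
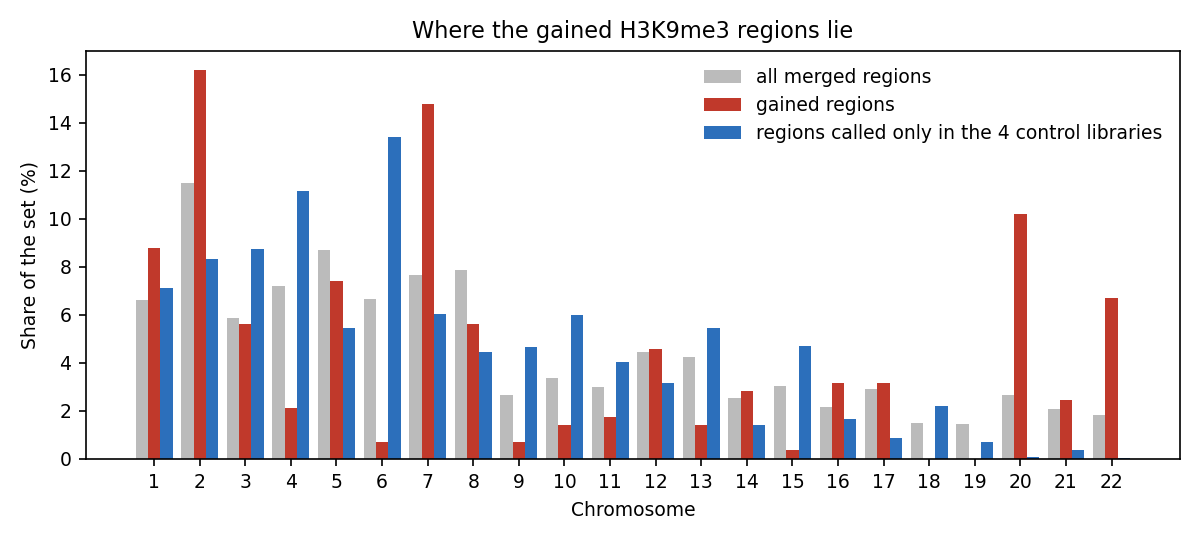
Share of regions on each of chromosomes 1 to 22 (y axis, percent of the set) for all 83727 merged regions (grey), the 284 gained regions (red) and the 3938 regions called in all control libraries only (blue). Red bars stand above grey ones on chromosomes 1, 2, 7, 12, 14, 16, 17, 20, 21 and 22, by most on chromosomes 2, 7, 20 and 22, and blue bars stand above grey ones on chromosomes 1, 3, 4, 6, 9, 10, 11, 13, 15 and 18.

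The 2 kinds of chromosome differed in enrichment. All 42 regions on chromosome 7 and all 25 on chromosome 1 had a scaled fold above 1 in all 4 libraries, with a median lowest fold of 1.79 and 1.95. On chromosome 2 this held for 45 of 46 (median lowest fold 1.47) and on chromosome 5 for 21 of 21. It held for 11 of 29 on chromosome 20 (median lowest fold 0.905), 10 of 19 on chromosome 22 and 5 of 16 on chromosome 3. Gained regions also lay towards the ends of the mapped chromosomes: 57 (20.1%) were within 5 Mb of the first or last merged region of their chromosome, against 8.72% of all regions and 6.50% of those lost in both arms.

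Part of the gain came in broad domains. Joining gained regions no more than 1 Mb apart gave 155 clusters, of which 101 were single regions, 26 were pairs and 28 held 3 or more. These 28 held 131 regions, 46.1% of the 284. In 85 regions (29.9%) another gained region lay within 100000 bp, and the median distance to the nearest was 391600 bp. Only 9 runs of adjacent merged regions consisted of gained regions alone, with 19 regions in all and at most 3 in a run. The 3938 lost regions were more numerous and denser, with 47.8% within 100000 bp of another and 87.1% in clusters of 3 or more.

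The largest cluster was on the short arm of chromosome 1, chr1:4126401-5602800 (hg19), with 15 gained regions that took up 187.8 kb of its 1476.4 kb. Since the gained regions define the span, coverage by islands was taken over the other 1288.6 kb, as a description with no test. It was 61.1% and 57.2% in resistant and 41.4% and 54.8% in shp150_AP1 cells. In parental cells it was 17.8% and 18.5% and in vector_NT cells 26.9% and 24.9%. The span held 66 merged regions, of which 21 had islands in all 8 libraries and none was lost in both arms. Its gained regions had ratios of 1.05 to 2.94, with median scaled folds of 2.78, 2.89, 2.44 and 2.49 in resistant replicates 1 and 2 and shp150_AP1 replicates 1 and 2.

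The second cluster lay near the end of the long arm of chromosome 7, chr7:152832801-154379000, with 12 gained regions taking up 183.6 of 1546.2 kb. Control cells had few islands here. Outside the gained regions, islands covered 2.88% and 2.41% of the span in parental and 4.90% and 5.31% in vector_NT cells. They covered 28.7% and 26.1% in resistant and 12% and 21.1% in shp150_AP1 cells. Of the 78 merged regions in the span, 5 had islands in all 8 libraries. The gained regions had ratios of 1.19 to 3.92 and median scaled folds of 2.50, 2.66, 2.94 and 2.76.

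**Figure D4:**
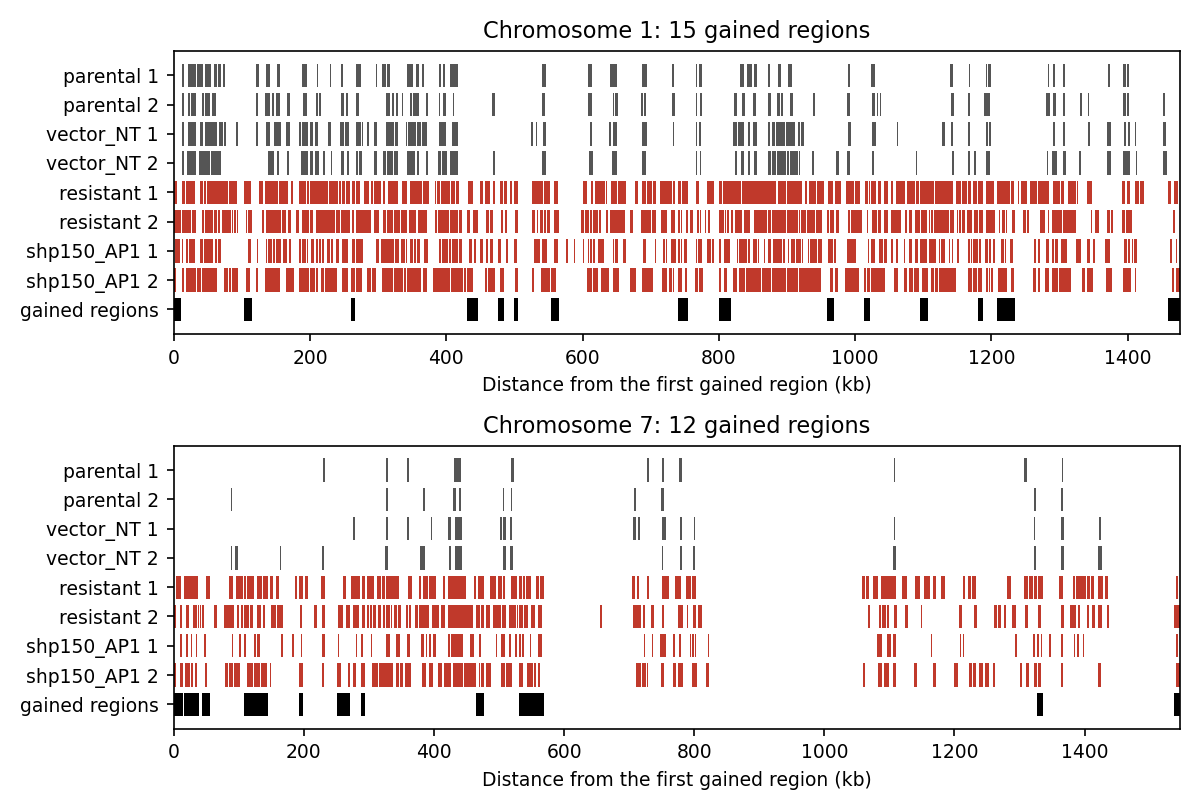
Islands of each of the 8 libraries (rows; controls grey, resistant and shp150_AP1 red) and gained regions (black) in the clusters of 15 regions on chromosome 1 and 12 regions on chromosome 7, against distance from the first gained region (x axis, kb). Islands in the red rows cover 42.52% to 62.73% of the chromosome 1 span and 13.98% to 33.14% of the chromosome 7 span. The grey rows of the chromosome 7 cluster are nearly empty, at 2.12% to 4.68% of the span.

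A further cluster of 8 regions lay at lower coordinates on the same arm, chr7:144786801-146517400, with coverage outside the gained regions of 6.12% and 5.65% in parental, 6.99% and 6.73% in vector_NT, 31.2% and 30.5% in resistant and 16.5% and 24.0% in shp150_AP1 cells. Its median scaled folds were 1.76, 1.71, 2.11 and 1.84. The cluster at chr2:116491401-118358000 had 7 regions, and the groups came closer together there. Outside them islands covered 50.2% and 52.2% in resistant and 31.5% and 43.2% in shp150_AP1 cells, against 23.4% and 25.3% in parental and 28.2% and 31.0% in vector_NT cells. The cluster at chr3:78668601-81563000 also had 7, and outside them islands covered 77.3% and 68.9% in resistant, 47.4% and 59.0% in shp150_AP1, 31.4% and 31.8% in parental and 28.8% and 26.7% in vector_NT cells. The scaled folds of its gained regions were low, with medians of 0.836, 0.907, 1.0 and 0.923, and their median relative input was 1.81.

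Surroundings of the gained regions leaned the same way. Of the merged regions next to a gained region, 232 (40.9%) had islands only in resistant or shp150_AP1 libraries, 1 to 3 of them, against 13.4% of all regions. Neighbours with islands only in 1 to 3 control libraries numbered 29 (5.11%, against 26.7%), and 1 neighbour was lost in both arms. Control islands were seldom far. Each control list covered 326 to 394 Mb, and the same distance was not taken for other regions. The nearest control island was a median of 8500 bp away (quartiles 3400 and 20200 bp), and 158 regions (55.6%) had one within 10000 bp. In 278 regions it was within 100000 bp. The most isolated was chr4:35033201-35037400, 311600 bp from any control island, with ratios of 1.48 and 1.63 in resistant and 1.86 and 1.75 in shp150_AP1 cells.

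The gained regions with the strongest signal sat near the tip of the short arm of chromosome 1. The region chr1:2618601-2622600 had 169 ChIP reads against 49 input reads in resistant replicate 1 and 131 against 44 in replicate 2, and 107 against 50 and 85 against 34 in the shp150_AP1 replicates. These are ratios of 3.45, 2.98, 2.14 and 2.50, and its lowest ratio was the highest of all 284 regions. Its neighbour chr1:2615401-2616600, the narrowest of all at 1200 bp, had ratios of 3.67, 3.86, 1.84 and 2.69. The third region, chr1:2687801-2689800, completed the cluster, with ratios of 7.05, 2.38, 1.11 and 3.14, the widest spread of the 3. No merged region other than these lay in the span from the first to the third, and control islands covered none of it. Resistant and shp150_AP1 islands covered none of the other 67.2 kb either, and whether reads can map there was not examined. The nearest control islands were 37200, 34000 and 6200 bp away.

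Other regions with high ratios were on chromosome 7. Of the 10 gained regions with the highest lowest ratio, 6 were on the long arm of chromosome 7, and by the lowest scaled fold 4 of the top 10 were on chromosome 7, 4 on chromosome 1 and 2 on chromosome 10. The region chr7:154370801-154379000 had ratios of 3.92 and 1.90 in resistant and 1.98 and 1.99 in shp150_AP1 cells and was 71200 bp from a control island. The region chr7:153120801-153127400 had ratios of 2.47, 1.88, 2.85 and 1.82. The other 4 were chr7:153084401-153103800, chr7:154160001-154168800, chr7:157941801-157950800 and chr7:158871401-158879800, with lowest ratios of 1.76, 1.72, 1.75 and 1.74. Outside chromosomes 1 and 7, chr10:132782001-132789000 had ratios of 2.0, 3.24, 2.79 and 2.58, and chr16:34315001-34324200 had 1.79, 2.50, 2.05 and 2.61.

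The widest regions were of mixed quality. The widest, chr7:152940601-152977400, spanned 36800 bp and had ratios of 2.05 and 1.68 in resistant and 1.28 and 1.88 in shp150_AP1 cells, with 2600 bp inside islands of all 4. The next, chr2:16416801-16451800, spanned 35000 bp with ratios of 1.68, 1.52, 1.17 and 1.21. The third, chr22:36279401-36313200, spanned 33800 bp but had more input than ChIP reads in each library, with ratios of 0.646, 0.600, 0.607 and 0.527, no base common to all 4 libraries and a relative input of 2.07. Another wide region, chr3:81249601-81272800, had 755 ChIP reads against 1185 input reads in resistant replicate 1 and ratios of 0.637, 0.665, 0.684 and 0.650. The other 6 of the 10 widest lay on chromosomes 1 (chr1:5334801-5360400), 2 (chr2:22019801-22045000 and chr2:81020801-81047600), 7 (chr7:145151201-145174600 and chr7:152849001-152871800) and 8 (chr8:69992601-70022800).

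ATAC-seq showed how much of this chromatin was open. Most were closed in every state, and the share that was open was not lower in resistant or shp150_AP1 cells. Counting a region as open when an ATAC peak overlapped it, 207 of the 284 were closed in all 8 libraries of the 4 groups, 26 were open in all 8 and 51 were open in 1 to 7. In 164 regions none of the 20 ATAC libraries of both cell lines had a peak. Over all regions only single libraries were counted. In the 8 libraries 10.3% to 13.1% of all regions were open, against 14.8% to 18.7% of the gained regions.

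By library, 42 and 43 gained regions were open in parental, 51 and 53 in resistant, 48 and 42 in vector_NT and 52 and 42 in shp150_AP1 cells. Resistant libraries were above parental ones, while shp150_AP1 and vector_NT libraries overlapped. The means were 17.4% ± 1.78 (SD, n = 4) in resistant and shp150_AP1 libraries and 15.4% ± 1.01 (SD, n = 4) in their controls. The difference of 2.02 percentage points did not pass a two-sided exact permutation test over the libraries with 70 arrangements (p = 0.143, smallest possible 0.0286), and with 2 libraries a side a single arm cannot go below 0.333. The share open among all regions moved the same way, from 10.8% ± 0.0372 to 12.7% ± 0.501 (SD, n = 2 each) between parental and resistant and from 10.7% ± 0.557 to 11.6% ± 0.533 between vector_NT and shp150_AP1 cells. The resistant peak lists were also longer, with 87509 and 91970 peaks against 80326 and 80841.

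**Figure D5:**
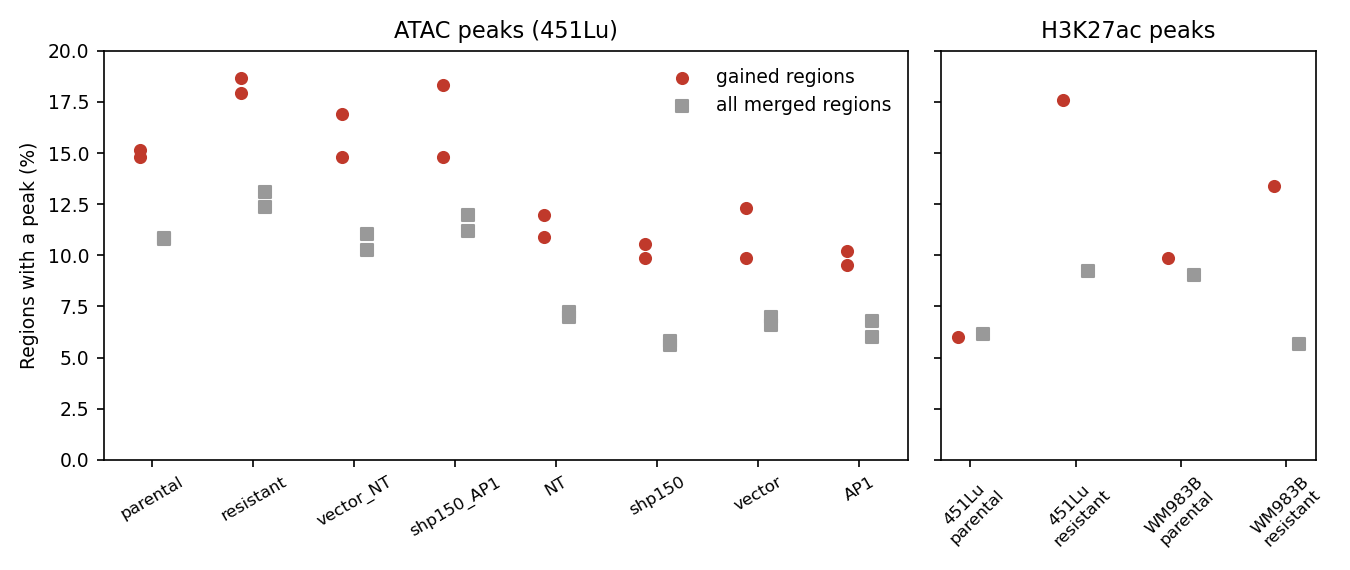
Share of regions overlapped by a peak (y axis, percent) in each 451Lu ATAC-seq library and each H3K27ac library with a peak list, 1 point per library, for the 284 gained regions (red) and all 83727 regions (grey squares). Red points lie above grey ones in every ATAC library, and in 451Lu H3K27ac the red point rises from 5.99% in parental to 17.6% in resistant cells while the grey one goes from 6.14% to 9.23%. The shares are not adjusted for width, and the gained regions are wider.

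Cells with each change alone gave a similar picture at a lower level. The share of gained regions with an ATAC peak was 11.4% ± 0.747 in NT and 10.2% ± 0.498 in shp150 cells, and 11.1% ± 1.74 in vector and 9.86% ± 0.498 in AP1 cells (SD, n = 2 each). Among all regions the same shares were 7.11%, 5.73%, 6.78% and 6.38%. Peak lists of these libraries were shorter, 41829 to 55300 peaks. In WM983B, a second melanoma line for which no H3K9me3 was measured, 24.3% and 27.8% of the gained regions were open in parental cells. The shares in resistant cells were 24.6% and 25.4%. Among all regions they were 15.1% and 17.9% in parental and 15.5% and 16.9% in resistant cells.

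At the level of single ATAC regions, changes inside the gained regions were near the rate of the genome. An ATAC region is called gained when both libraries of the changed cells and neither control had a peak, and lost in the reverse case. Between resistant and parental cells 10 of 84 ATAC regions inside were gained (11.9%, against 9.85% of all ATAC regions) and 2 were lost (2.38%, against 3.95%). Without parental replicate 1 the gains were 16 and without resistant replicate 1 they were 17, and the losses were 6 without either parental library, each rule then needing fewer libraries. Between shp150_AP1 and vector_NT cells 4 of 83 were gained (4.82%, against 5.21%) and 4 lost (4.82%, against 3.24%), which became 8 to 11 gains and 5 to 9 losses when 1 library was left out. Between shp150 and NT cells 0 of 53 were gained (background 0.741%) and 4 were lost (7.55%, against 7.54%). Between AP1 and vector cells 0 of 48 were gained (background 1.6%) and 2 were lost (4.17%, against 2.84%).

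Exactly 1 gained region was open in all 4 control libraries and closed in all 4 of the others, and none had the reverse pattern. Neither pattern was counted over all regions. The 1 region was chr2:83548401-83565600, which spanned 17200 bp. Its ATAC peak had a score, as given by the authors' peak caller, of 11.0 and 10.9 in parental and 10.3 and 8.20 in vector_NT cells and no call in resistant or shp150_AP1 cells. The peak lay at chr2:83551009-83551348 in the parental calls. The ChIP over input ratios of this region were 1.13 and 1.20 in resistant and 0.748 and 1.07 in shp150_AP1 cells, and no base was common to islands of all 4. The opposite event, an ATAC region gained in both arms, occurred once, in chr20:50355601-50369600. Its peak at chr20:50368767-50369324 had scores of 14.1 to 16.4 in the resistant libraries, and an overlapping peak of 4.35 to 6.19 appeared in the shp150_AP1 libraries.

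Open gained regions tended to be those with weak H3K9me3 enrichment. The 26 open in all 8 libraries had a median lowest scaled fold of 1.03 and a median relative input of 1.42, and 13 of them were on chromosome 20. The 207 closed in all 8 had a median lowest scaled fold of 1.54 and a median relative input of 0.953, and 10 were on chromosome 20. In the resistant and shp150_AP1 libraries, ATAC peak centres were also less dense in the bases common to islands of all 4. In resistant replicates 1 and 2 there were 12.9 and 19.3 ATAC peak centres per Mb of common bases against 23.9 and 24.8 per Mb elsewhere in the gained regions, and in shp150_AP1 10.7 and 12.9 against 24.8 and 19.8. In parental cells the values were 19.3 against 18.0 in both libraries, and in vector_NT 17.1 against 21.6 and 19.3 against 17.6, so the resistant and shp150_AP1 libraries had the lower density in common bases in 4 of 4 and the controls in 1 of 4. These densities rest on few peaks, as common bases total 0.467 Mb. They held 6 and 9 centres in resistant, 5 and 6 in shp150_AP1, 9 and 9 in parental and 8 and 9 in vector_NT cells. Resistant replicate 2 thus matched both parental libraries there and differed only elsewhere, with 55 centres against 40. Common bases were also defined by resistant and shp150_AP1 islands, so the tally is a description with no test.

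H3K27ac was more frequent in the gained regions of resistant cells. Of the 8 libraries of this active mark, 4 had a peak list, 1 in each group, so the differences have no replicate check and no test. In 451Lu, 17 gained regions (5.99%) had an H3K27ac peak in parental and 50 (17.6%) in resistant cells, while among all regions the share was 6.14% and 9.23%. A peak in resistant cells alone was present in 39 gained regions (13.7%, against 5.72% of all regions), and a peak in parental cells alone in 6 (2.11%, against 2.62%). Peaks were at 7.08 per Mb of gained region in parental and 26.8 per Mb in resistant cells, against 12.1 and 18.5 per Mb over all regions. In regions called in all 8 H3K9me3 libraries a resistant-only peak was present in 11.5%, and in regions lost in both arms in 3.63%.

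The peak lists differed in length, 31807 peaks in parental and 50948 in resistant cells. With the resistant list shortened to the best 31807 peaks, 31 gained regions had a peak in resistant and 17 in parental cells, while among all regions the share was 5.24% and 6.14%. A peak in resistant cells alone was then present in 22 gained regions (7.75%, against 2.63% of all regions) and one in parental cells alone in 8 (2.82%, against 3.53%). Outside chromosomes 3, 20 and 22 the resistant-only count was 24 of 220 (10.9%, against 5.22% of all regions there), and 2 had a peak in parental cells alone (0.909%, against 2.51%). Of the 39 regions, 10 were on chromosome 20, and their median relative input was 1.18 against 0.967 in the other 245. The part of input level in this count was not tested.

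Within the resistant cells, some H3K27ac peaks lay over H3K9me3 islands. The rule puts islands of both resistant libraries in every gained region, and they cover a median of 73.8% and 59.7% of it. Overlap is thus largely set by the rule, and no expected share was computed. Of 72 resistant H3K27ac peaks in gained regions, 61 had no parental peak, and of these 34 lay over islands of both resistant H3K9me3 libraries and 4 over none. Open chromatin was seen at 8 of the 61, which overlapped an ATAC peak of both resistant libraries. Their median peak score was 7.03, against 7.59 for the whole resistant list. The highest were chr13:46929317-46929874 with a score of 58.8, chr20:30191050-30192050 with 54.5, chr15:63335633-63336139 with 35.4 and chr2:190140146-190140619 with 32.3. Of the 39 regions with resistant-only H3K27ac, 16 were open by ATAC in both resistant libraries, 18 in neither, and 11 already in both parental libraries.

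In the second line, too, more gained regions had H3K27ac in resistant than in parental cells. In WM983B, 28 of the gained regions (9.86%) had an H3K27ac peak in parental and 38 (13.4%) in resistant cells, again with the peak list of 1 library each, while among all regions the share was 9.02% and 5.67%. A peak in resistant cells alone was present in 22 gained regions (7.75%, against 1.98% of all regions) and in parental cells alone in 12 (4.23%, against 5.33%). Of the 39 and 22 resistant-only regions of 451Lu and WM983B, 10 were shared, 25.6% and 45.5% of each list. The same overlap was not counted over all regions, so whether it is particular to the gained regions is not known. The WM983B parental list was the longer, 49682 peaks against 35477, the reverse of 451Lu.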

How the data were processed

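Values were used as the authors deposited them. The submitters' processing notes name the build hg19 and tools that include Bowtie2, Picard, SICER, MACS2 and STAR 2.5.3, with no role given. Each deposited H3K9me3 island list gives, per island, the read counts of ChIP and input, a p-value, a fold (ratio of ChIP to input times 1 constant per library) and a false discovery rate, and islands end on a 200 bp grid. ATAC and H3K27ac lists give a deposited score per peak, and its scale is not given in the sources used here. A further deposited table of intervals gives log2 fold changes and adjusted p-values.

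Regions, overlaps (1 bp or more) and tests were computed with Python 3.11, pandas 2.3.3 and numpy 2.4.6. Read counts of a library were summed over its islands in a region. The merging and the permutation test were tested on simulated data. The members and lists were chosen with earlier results of these data known. Regions were named by the 10 highest lowest ratios over the 4 libraries, the 10 widest, the 5 clusters with most regions, and ATAC calls in all of one side and none of the other. The isolated region on chromosome 4, the cluster of 3 on chromosome 1, the region with an ATAC gain in both arms and the H3K27ac peaks were named after their values were seen. Gene annotation and genome sequence of hg19 were not used here, so no gene is assigned and no sequence is printed. H3K9me3 input, RNA-seq and the other H3K27ac libraries were not analysed here by themselves. Replicate numbers were not shown to pair the libraries.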

Additional observations from a re-analysis of the deposited data

How the results depend on the processing

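The count of 284 was within 1.5 times of itself with islands of a false discovery rate under 0.01 (221), islands of at least 1000 bp, islands up to 1000 bp apart merged (242), or 50% coverage (328, of which 53 were shared). With island lists of equal length it was 635, of which 139 were shared. Leaving out 1 library gave 323 to 570. Counting, as chosen after seeing the data, only regions with a base common to all 4 libraries or with scaled folds above 1 in all 4 gave 235 and 239.

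The ATAC difference of 2.02 percentage points missed 0.05 in all 14 alternatives, with exact permutation p from 0.0571 to 0.257. With the replicate block, which pairs libraries of the same number and arm, it was 2.02 with an exact sign-flip permutation p = 0.25. That test has too few arrangements to go below 0.05, as has the exact permutation with labels moved only within each arm (p = 0.167). Both misses were thus fixed in advance. Leave-one-out values were 1.61 to 2.90. ATAC gains in resistant cells were 7 with equal lists and 12 to 17 leaving out 1 library, and losses were 4 and 3 to 6. In shp150_AP1 cells gains were 6 and 8 to 11, and losses 4 and 5 to 9. Resistant-only H3K27ac fell to 22 regions with equal lists, 27 of the 239 and 24 outside chromosomes 3, 20 and 22, all chosen after seeing the data.

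ChIP reads in islands differed between H3K9me3 libraries and their sequencing depth is unknown, so a missing island is not evidence of a missing mark. ATAC and H3K27ac depth is unknown too.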

Other observations

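The authors' deposited table lists 1784 intervals on chromosomes 1 to 22 with a log2 fold change, on a 20 kb grid, and does not name the groups or the direction of its comparison. Since 84 intervals have equal start and end, the end was read as the start of the last 20 kb step. By that reading 33 of the 284 gained regions (11.6%, against 12.6% of all regions) lay in 30 intervals. Of the 33, 28 were in an interval with a positive value in the authors' deposited table (84.8%), against 52.4% of all regions that lay in any interval. The adjusted p in the authors' deposited table was under 0.05 for 21 of the 28 and for all 5 in negative intervals.

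The highest value in the authors' deposited table at a gained region was 7.08 (adjusted p = 9.43e-25), at chr8:69992601-70022800, one of the 10 widest. In the authors' deposited table chr4:16478201-16481800 had 6.26 (adjusted p = 3.75e-54). The same table, the authors' deposited table, gave 5.92 at chr11:12093401-12097600 (adjusted p = 1.89e-60) and 5.54 at an interval with 2 gained regions, chr1:115712801-115720000 and chr1:115778201-115783800. The lowest values in the authors' deposited table were -2.52 at chr20:9393001-9401600 and -2.46 at chr20:47281001-47286000.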
